A study of Mus musculus with 4 samples.

Results

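H19 and 9 other imprinted growth genes (Igf2, Igf2r, Dlk1, Meg3, Peg3, Mest, Plagl1, Cdkn1c and Grb10) were followed through 4 RNA-seq libraries of mouse mammary tumours. The genes were taken by symbol from the GENCODE M21 annotation, and 10 of the 51826 rows of the counts table carried one of these symbols. All tumours were labelled C3-T+, and the comparison was between 2 tumours with both copies of Elf5 (Elf5+/+, WT) and 2 tumours with a single intact copy (Elf5+/-, HET). Elf5 is a member of the ETS family of transcription factors and drives milk-producing differentiation in the mammary gland. After enzymatic digestion, antibodies to CD45, CD31 and TER119 were used to sort a population enriched in tumour cells, and total RNA was sequenced. The labels give no age or strain and do not say what drives the C3-T transgene. The titles of both HET libraries begin with the same number and end in T1 and T2, so these may be 2 tumours of a single animal. Errors and tests therefore describe only the spread between these samples, which may in part be technical.

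An imprinted gene is transcribed mainly from the copy inherited from one parent. Control regions of these genes are methylated in the germ line on one parental copy, and depending on the gene the methylated copy is the silent or the active one. Many imprinted genes act on growth before birth. Igf2, Dlk1, Peg3, Mest and Plagl1 are usually expressed from the paternal copy, and H19, Igf2r, Meg3, Cdkn1c and Grb10 from the maternal copy in most tissues. H19 and Igf2 are neighbours that share enhancers, and CTCF bound to the unmethylated maternal control region keeps those enhancers on H19. Several of these genes are shut down in most tissues after birth and are found again in regenerating tissue and in tumours. The libraries give summed reads from both copies, so the parental origin of the RNA was not measured.

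H19 (chromosome 7, 142575529 to 142578143, GRCm38, minus strand) is a long noncoding RNA and also the host of a microRNA, miR-675, whose sequences are shown because the microRNA row of the table could be set beside its host. The hairpin lay in 3 of 7 annotated H19 transcripts, starting for example at base 240 of a transcript of 1521 bases. The hairpin and its arms (RefSeq, GRCm38.p6, chr7:142577064-142577147, minus strand) are printed below from 5′ to 3′, with the mature arms in capitals in the hairpin and the seed, bases 2 to 8, in capitals in each arm.
Mir675 hairpin: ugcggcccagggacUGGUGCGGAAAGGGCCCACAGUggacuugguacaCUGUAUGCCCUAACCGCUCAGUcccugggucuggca
mmu-miR-675-5p: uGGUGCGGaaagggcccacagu
mmu-miR-675-3p: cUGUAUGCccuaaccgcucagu
The arms carry different seeds. The row of the Mir675 gene held 4 counts (WT 1), 7 (library labelled WT 2), 0 (HET 1) and 0 (HET 2). A count of 0 allows up to 3 counts, so the microRNA row was near the limit of detection in every library. Reads of H19 transcripts that hold the hairpin can be assigned to either row, and mature microRNAs are not measured by libraries of this kind.

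Totals lay between 12695132 and 15307939 counts per library. Levels are given as counts scaled to library size (CPM) by TMM, a correction for differences in RNA composition, and 3 counts correspond to 0.195 to 0.239 CPM. Elf5 stood at 35.6 CPM (WT 1), 4.70 (library labelled WT 2), 5.39 (HET 1) and 10.6 (HET 2), so one library labelled WT had less Elf5 RNA than both HET libraries. Every direction below rests on that label. The same library stood apart on the first principal component (62.03% of the variance), at 137.9 against -53.0 to -36.4 for the others. It also had the largest share of genes at 0 counts, 44.5% against 29.9% to 31.3% in the others, although its total was the highest. Epithelial markers were present in each library, with Epcam between 613 and 1288 CPM, but their levels differed between libraries. Krt8 was at 787.8 CPM (WT 1), 330.3 (library labelled WT 2), 284.1 (HET 1) and 518.9 (HET 2). Foxa1 was at 6.60, 0.356, 11.2 and 34.3 CPM in the same order, with 5 counts in the library labelled WT 2. RNA of sorted-out cells remained: Ptprc, which encodes CD45, was at 62.1 CPM (WT 1), 2.85 (library labelled WT 2), 73.4 (HET 1) and 66.1 (HET 2), and Pecam1, which encodes CD31, at 220.7, 55.6, 127.2 and 272.4 CPM in the same order.

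Across the 10 genes, the fitted HET to WT difference (log2 fold change) was below 0 for 8, against 47.3% of all genes, and above 0 for Peg3 and Cdkn1c. The median was -0.59, against 0.04 over all 21607 genes tested. Genes usually expressed from the maternal copy (4 of 5 below 0, median -0.70) and from the paternal copy (4 of 5 below 0, median -0.42) were both mostly lower. For H19 and Igf2r alone did every HET library lie below every WT library, that is 2 of 10, against 35.5% of all genes that do not overlap in either direction and 15.9% in the lower direction. The edgeR quasi-likelihood test with Benjamini-Hochberg adjustment called 0 of the 10, against 0% of all genes at an adjusted p under 0.05 and 3.78% (817 genes) at an unadjusted p under 0.05. DESeq2 called 134 genes and limma-voom 0, and neither called one of the 10. At that unadjusted threshold 2 of 10 were lower and 0 higher, against 1.83% and 1.95% of all genes. The set was selected on its gene symbols with the levels in these same libraries and this comparison already known, so nothing is read from these counts and the genes are given without p-values. All 10 passed the filter on low counts. In bulk RNA such as this, fewer cells of a type and less RNA per cell cannot be told apart.

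**Figure D1:**
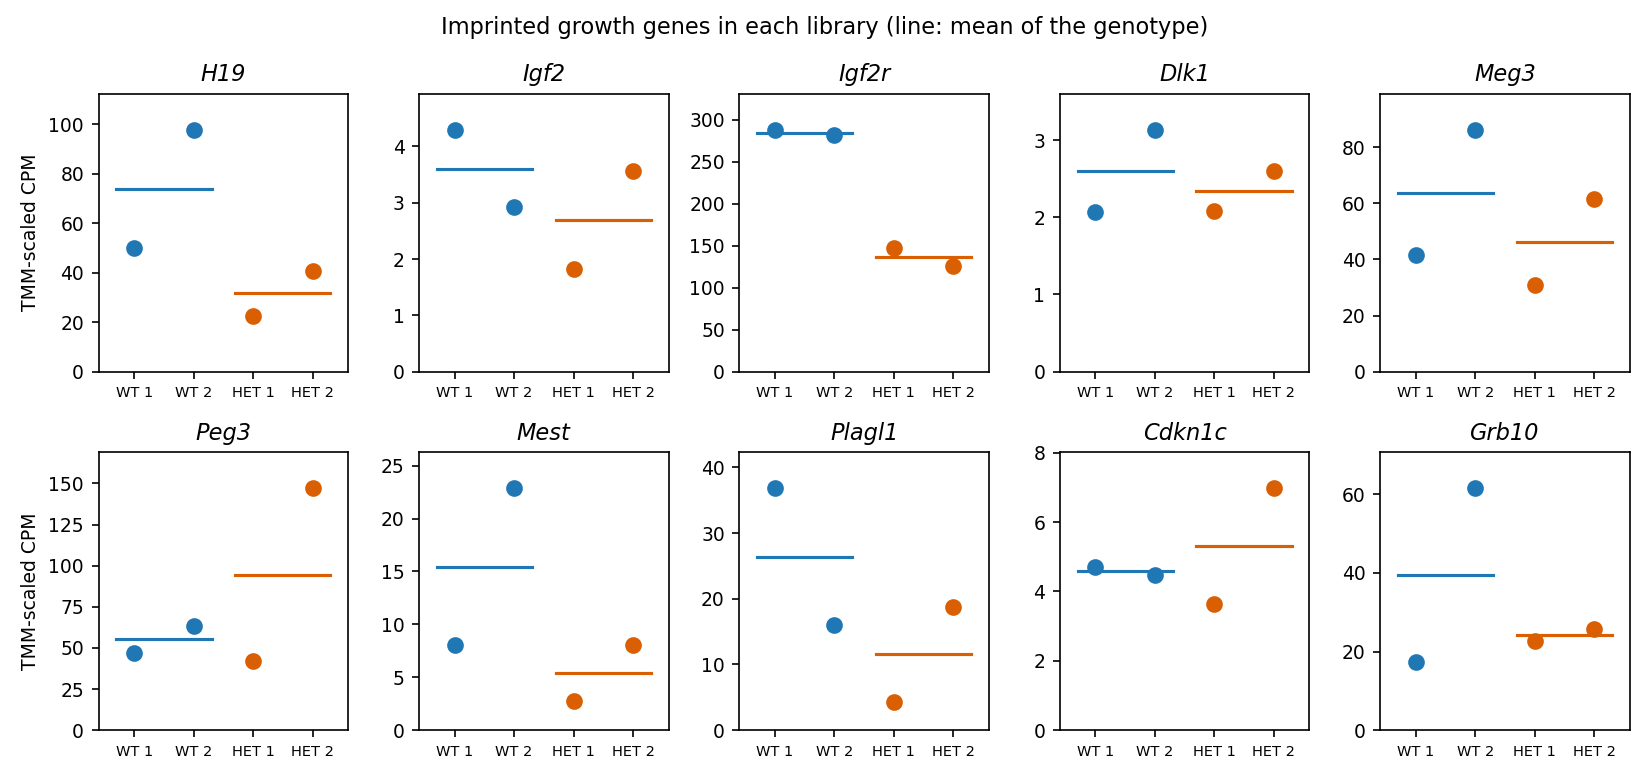
TMM-scaled CPM (y axis, from 0, separate scale per gene) of the 10 imprinted growth genes in the 4 libraries (x axis); points are single libraries, blue for WT and orange for HET, and lines are the mean of 2 libraries. The HET points lie below both WT points for H19 and Igf2r, while the groups overlap for the other 8.

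H19 was lower in both HET libraries by 2.33-fold on average. It stood at 49.8 CPM (WT 1), 97.8 (library labelled WT 2), 22.5 (HET 1) and 40.8 (HET 2). Both HET libraries were below both WT libraries, but the distance from HET 2 to WT 1 was small beside the distance between both WT libraries. The means were 73.8 ± 33.9 CPM in WT and 31.7 ± 12.9 CPM in HET (SD, n = 2 each), a log2 fold change of -1.22 ± 0.46 (SE). Without the library labelled WT 2 it was -0.65, and without HET 2 it was -1.80. Since the groups did not overlap, leaving out a library could hardly turn the direction. It also held under every scaling tried.

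Igf2 (chromosome 7, 142650766 to 142666816, minus strand) encodes insulin-like growth factor 2, the fetal growth factor whose gene shares its enhancers with H19. It was near the bottom of the set, at 4.30 CPM (WT 1), 2.92 (library labelled WT 2), 1.82 (HET 1) and 3.56 (HET 2). The groups overlapped, since HET 2 lay between both WT libraries. These levels rest on 54, 41, 28 and 48 counts, and the exact Poisson 95% interval, which covers counting error only, ran from 18.6 to 40.5 for HET 1 and from 29.4 to 55.6 for the library labelled WT 2. The log2 fold change of -0.42 ± 0.63 (SE, n = 2 each) was -0.06 without HET 1 and -1.04 without HET 2. Per kilobase of exon, H19 exceeded Igf2 by 27.0-fold (WT 1), 77.9-fold (library labelled WT 2), 28.8-fold (HET 1) and 26.7-fold (HET 2). The ratio lay close together in 3 libraries of both genotypes and was higher in the fourth. The antisense gene Igf2os had at most 8 counts in a library, and Ins2, the neighbouring insulin gene, at most 1.

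Igf2r (chromosome 17, 12682406 to 12769664, minus strand) encodes the receptor that binds IGF2, takes it to the lysosome and so removes it, and that also sorts lysosomal enzymes. Its levels had the smallest pooled spread within genotypes of the 10 (log2 SD 0.11), with 288.3 CPM (WT 1), 281.5 (library labelled WT 2), 147.0 (HET 1) and 126.2 (HET 2). The groups did not overlap, and the gap between them was far wider than the distance between libraries of one genotype. The means were 284.9 ± 4.81 CPM in WT and 136.6 ± 14.7 CPM in HET (SD, n = 2 each), a log2 fold change of -1.06 ± 0.29 (SE). It stayed between -1.23 and -1.02 without each library in turn, the narrowest range of the 10. Airn, the noncoding antisense RNA that silences the paternal Igf2r copy, overlaps Igf2r, and stood at 12.3 CPM (WT 1), 21.2 (library labelled WT 2), 16.9 (HET 1) and 13.5 (HET 2). Its groups overlapped (log2 fold change -0.14 ± 0.42, SE). Whether the counting used strand is not given in the sources used here, so reads from exons that Igf2r and Airn share cannot be told apart.

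**Figure D2:**
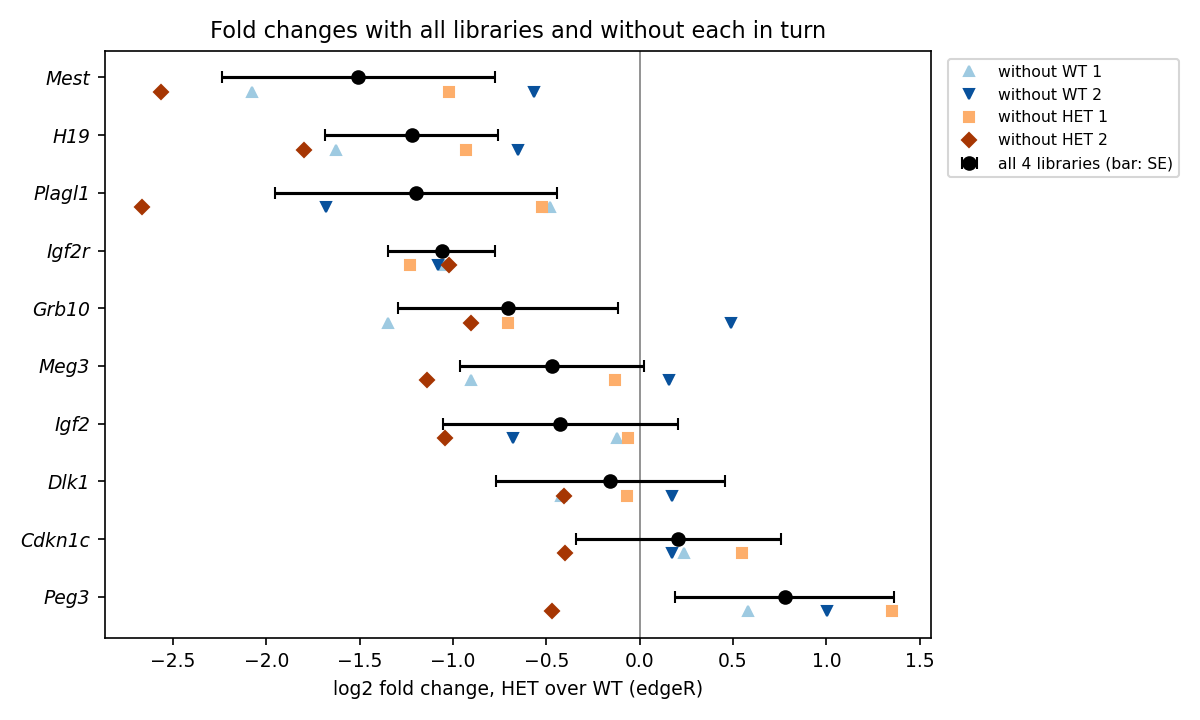
Log2 fold change of HET over WT (x axis) of the 10 genes (y axis); black points are the edgeR fit on 4 libraries with bars of 1 SE, and coloured symbols the fit without 1 library each. Igf2r stays near -1.06 throughout, whereas Meg3, Grb10 and Dlk1 turn positive without the library labelled WT 2, and Peg3 and Cdkn1c turn negative without HET 2.

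Dlk1 and Meg3 belong to a single imprinted domain on chromosome 12. Dlk1 (109452823 to 109463336, plus strand) encodes a transmembrane relative of the Notch ligands that holds back differentiation. It was the lowest of the set per kilobase, with 2.07 CPM (WT 1), 3.13 (library labelled WT 2), 2.08 (HET 1) and 2.60 (HET 2), on 26 to 44 counts. Its groups overlapped, and the log2 fold change of -0.16 ± 0.61 (SE) became 0.17 without the library labelled WT 2, -0.42 without WT 1 and 0.03 when libraries were scaled by total counts alone, a scaling that moved the median of all genes from 0.04 to 0.22. Meg3 (109541001 to 109571726, plus strand) is a long noncoding RNA of the maternal copy that also carries microRNAs. It stood at 41.4 CPM (WT 1), 86.2 (library labelled WT 2), 30.8 (HET 1) and 61.5 (HET 2), so each genotype had 1 high and 1 low library. Per kilobase of exon, Meg3 exceeded Dlk1 by 4.64-fold (HET 1) to 8.60-fold (library labelled WT 2). The log2 fold change was -0.47 ± 0.49 (SE, n = 2 each), with 0.16 when the library labelled WT 2 was left out and -1.14 when HET 2 was.

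The other genes tested in that domain shared the high library of Meg3. Rian and Mirg, noncoding RNAs downstream of Meg3 that hold small nucleolar RNAs and microRNAs, were at 25.9 and 2.55 CPM (WT 1), 49.9 and 4.34 (library labelled WT 2), 15.3 and 1.95 (HET 1), and 24.9 and 2.08 (HET 2). Rtl1, a retrotransposon-derived gene of the paternal copy, was at 3.50, 6.34, 3.12 and 4.68 CPM in the same order. Dio3, which encodes the enzyme that inactivates thyroid hormone, was at 1.99, 2.42, 0.389 and 0.816 CPM. All 6 tested genes of the domain were highest in the library labelled WT 2, and 5 of 6 were lowest in HET 1, against 26.6% and 23.2% of all genes. Genes of the maternal copy and genes of the paternal copy were high in the same library. Rian, Mirg and Dio3 did not overlap between genotypes, with log2 fold changes of -0.91 ± 0.45, -0.77 ± 0.61 and -1.86 ± 0.79 (SE). Over the 21 tested neighbours in all the domains, groups did not overlap for 4 in each direction. The shares of all genes were 19.6% higher and 15.9% lower.

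**Figure D3:**
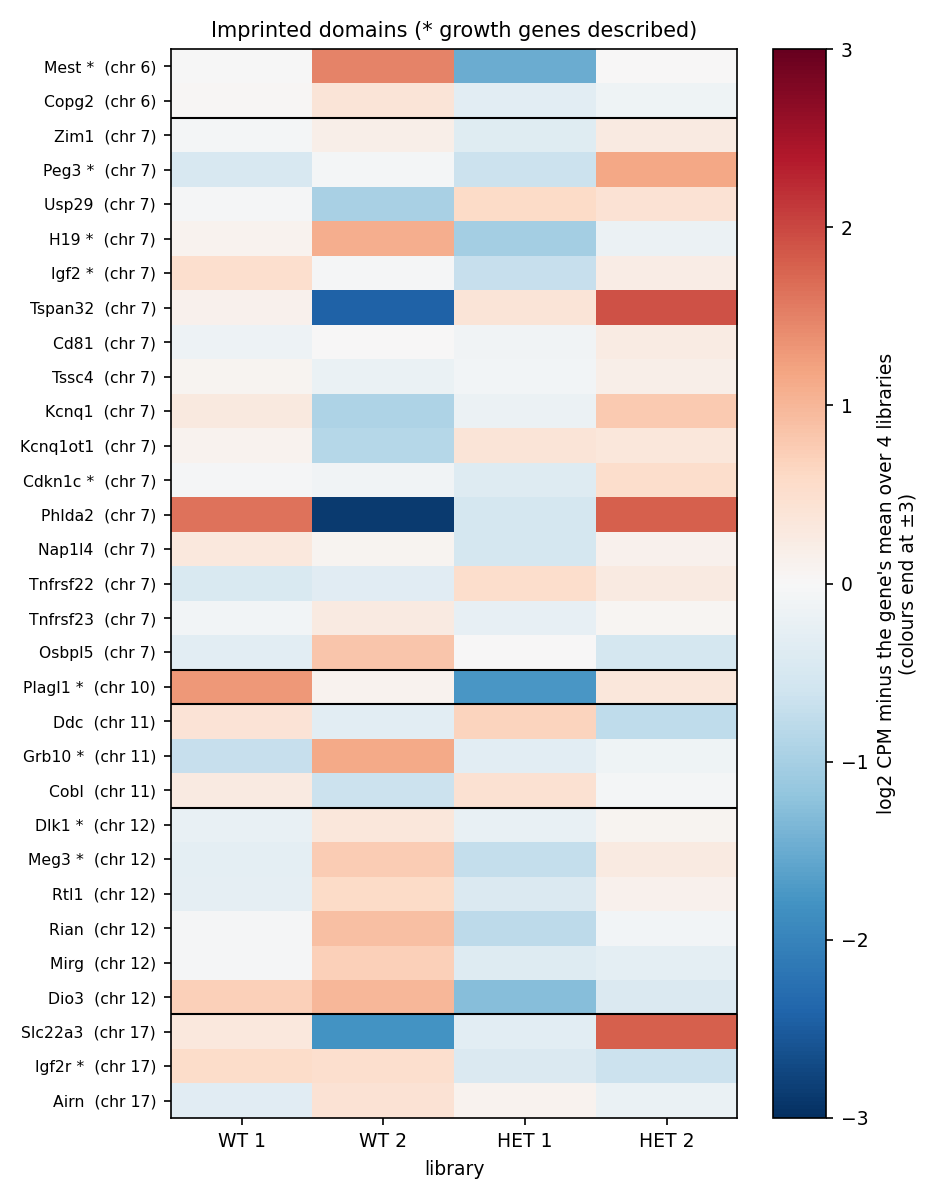
Log2 CPM of each gene minus its mean over the 4 libraries (colour, red above and blue below, ends at 3) for the 10 growth genes (asterisks) and 21 tested genes of their imprinted domains (rows, ordered along each chromosome) in the 4 libraries (columns). The 6 chromosome 12 genes are red in the library labelled WT 2, while the neighbours of H19 and Igf2 on chromosome 7 are mixed there, from -2.87 for Phlda2 to 0.84 for Osbpl5.

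Peg3, Mest and Plagl1 are paternally expressed genes on 3 chromosomes, and they had the 3 largest pooled log2 SDs within genotypes, at 1.21 for Plagl1, 1.05 for Mest and 0.92 for Peg3 (Grb10 also had 0.92). Peg3 (chromosome 7, 6703892 to 6730431, minus strand) encodes a zinc finger protein with roles in growth and maternal behaviour. It stood at 47.2 CPM (WT 1), 63.2 (library labelled WT 2), 42.1 (HET 1) and 147.1 (HET 2), so 1 HET library was the highest and the other the lowest. Its log2 fold change was 0.78 ± 0.59 (SE, n = 2 each), with -0.47 when HET 2 was left out and 1.35 when HET 1 was. Usp29, which shares its start region with Peg3 on the opposite strand, was instead higher in both HET libraries, at 7.95 CPM (WT 1), 4.06 (library labelled WT 2), 12.3 (HET 1) and 11.1 (HET 2) (log2 fold change 0.96 ± 0.50, SE).

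Mest (chromosome 6, 30723547 to 30748465, plus strand) encodes a hydrolase-like protein of the endoplasmic reticulum that is linked to growth of mesenchyme and fat. It had the most negative fold change of the set, with 8.03 CPM (WT 1), 22.9 (library labelled WT 2), 2.79 (HET 1) and 8.09 (HET 2). WT 1 and HET 2 were level, so the difference lay in the high WT and the low HET library. The log2 fold change was -1.51 ± 0.73 (SE, n = 2 each), with -0.57 when the library labelled WT 2 was left out and -2.56 when HET 2 was. Copg2, a coat protein gene that overlaps Mest on the other strand, was at 29.0 CPM (WT 1), 36.9 (library labelled WT 2), 22.8 (HET 1) and 26.0 (HET 2), lower in both HET libraries (log2 fold change -0.43 ± 0.31, SE).

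Plagl1 (chromosome 10, 13060504 to 13131694, plus strand) encodes a zinc finger transcription factor that restrains proliferation and is known to act on other imprinted genes, among them H19 and Igf2. Its span was the widest of the 10, at 8.60-fold, with 36.8 CPM (WT 1), 16.0 (library labelled WT 2), 4.28 (HET 1) and 18.8 (HET 2). HET 2 lay between both WT libraries. The log2 fold change of -1.20 ± 0.76 (SE, n = 2 each) ranged from -2.66 without HET 2 to -0.48 without WT 1, so its size depended on single libraries. Plagl1 was highest in WT 1, unlike H19, Mest and Meg3, which were highest in the library labelled WT 2. The cartilage-like markers (5 of 6 below 0) were mixed. Acan, the cartilage proteoglycan, and Col2a1 were highest in WT 1 and lowest in HET 1, as was Plagl1. Acan stood at 336.3 CPM (WT 1), 71.2 (library labelled WT 2), 24.4 (HET 1) and 33.8 (HET 2). Col11a2 was highest in WT 1 but lowest in the library labelled WT 2, and Matn3 was highest in WT 1 but lowest in HET 2. Comp was highest in the library labelled WT 2. Col9a1 was highest in HET 2, at 142.0 CPM. The part of such cells in the level of Plagl1 was not tested.

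The growth inhibitors Cdkn1c and Grb10 showed no separation by genotype. Cdkn1c (chromosome 7, 143458339 to 143461050, minus strand) encodes p57, an inhibitor of cyclin-dependent kinases. It stood at 4.69 CPM (WT 1), 4.49 (library labelled WT 2), 3.64 (HET 1) and 6.98 (HET 2), so both WT libraries lay between both HET libraries. The log2 fold change was 0.21 ± 0.55 (SE, n = 2 each), with -0.40 when HET 2 was left out and 0.55 when HET 1 was. Grb10 (chromosome 11, 11930508 to 12038683, minus strand) encodes an adaptor that dampens insulin and IGF1 receptor signalling. It stood at 17.3 CPM (WT 1), 61.5 (library labelled WT 2), 22.7 (HET 1) and 25.7 (HET 2). A single library was high, and the fitted difference was -0.70 ± 0.59 (log2, SE), with 0.49 when that library was left out and -1.35 when WT 1 was.

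For 7 of the 10 genes the larger log2 difference between 2 libraries of one genotype exceeded the fitted difference between genotypes. The exceptions were H19, Igf2r and, only narrowly, Mest, at -1.51 between genotypes and 1.49 within one. The groups of Mest overlapped. The share of all genes for this measure was not computed. HET 2 was above HET 1 for 9 of the 10 genes, Igf2r being the exception, against 49.7% of all genes, and the log2 difference reached 2.09 for Plagl1 and 1.80 for Peg3. The library labelled WT 2 was above WT 1 for 6 of 10, against 41.4% of all genes. It was the highest library for 5 genes (H19, Dlk1, Meg3, Mest and Grb10), and HET 1 was the lowest for 7 (H19, Igf2, Meg3, Peg3, Mest, Plagl1 and Cdkn1c). The summed level of the 10 genes was 499.9 CPM (WT 1), 639.7 (library labelled WT 2), 279.7 (HET 1) and 441.3 (HET 2).

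Levels were ordered per kilobase of annotated exon, a scale that makes genes of different length comparable. Igf2r (22.6 ± 9.25 CPM per kb, SD over 4 libraries) and H19 (21.4 ± 13.1) led and changed places between libraries, with H19 below Igf2r in 2 of 4. Peg3 followed at 5.62 ± 3.67 and was below H19 in 4 of 4 libraries and above Grb10 in 3 of 4. Grb10 (3.50 ± 2.22), Meg3 (3.04 ± 1.35), Mest (2.65 ± 2.19), Plagl1 (2.43 ± 1.72) and Cdkn1c (2.43 ± 0.700) did not differ beyond their spread. Igf2 (0.550 ± 0.184) was below Cdkn1c in 4 of 4 libraries, and Dlk1 (0.436 ± 0.0897) was below Igf2 in 2 of 4. Exons of all annotated transcripts were joined for the length, which understates the level of a gene such as Meg3 that has many alternative exons.

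The 250 bases before a RefSeq transcript start of Igf2r, Mest and Plagl1 are shown because these genes, with H19, had the most negative fold changes (log2 below -1) and because Elf5 belongs to the ETS family, which binds a GGAA core. The sequences are from RefSeq on GRCm38.p6, 5′ to 3′ on the strand of the gene: chr17:12769707-12769956 (minus) for Igf2r, chr6:30737800-30738049 (plus) for Mest and chr10:13090582-13090831 (plus) for Plagl1. A single start was used per gene, the one beside most GENCODE transcript starts, which need not be the edge of the gene span given above. The windows of Mest and Plagl1 lie inside that span. Capitals mark GGAA and its reverse complement TTCC.
Igf2r promoter: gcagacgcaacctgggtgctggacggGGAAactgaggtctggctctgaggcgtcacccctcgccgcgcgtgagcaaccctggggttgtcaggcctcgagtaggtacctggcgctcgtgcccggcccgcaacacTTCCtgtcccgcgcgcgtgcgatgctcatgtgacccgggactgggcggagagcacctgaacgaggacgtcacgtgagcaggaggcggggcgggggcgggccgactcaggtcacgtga
Mest promoter: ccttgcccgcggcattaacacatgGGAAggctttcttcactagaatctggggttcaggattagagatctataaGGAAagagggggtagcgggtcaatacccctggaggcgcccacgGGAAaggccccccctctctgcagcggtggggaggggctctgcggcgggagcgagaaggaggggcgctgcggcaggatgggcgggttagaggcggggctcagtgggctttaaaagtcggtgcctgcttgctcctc
Plagl1 promoter: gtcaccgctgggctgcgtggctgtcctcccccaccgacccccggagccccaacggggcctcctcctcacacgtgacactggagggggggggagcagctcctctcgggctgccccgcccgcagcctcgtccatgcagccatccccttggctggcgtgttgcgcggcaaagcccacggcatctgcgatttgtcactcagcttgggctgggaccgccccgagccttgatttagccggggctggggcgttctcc
GGAA or TTCC occurred 2 times before Igf2r, 3 times before Mest and 0 times before Plagl1. The 4 letters were present on either strand in 93.4% of 32851 windows of the same length from the whole table, with a median of 3. The longer ETS sequence CCGGAAGT, which contains GGAA, was in none of the 3 windows (0 matches on either strand) and in 2.88% of all windows. CG pairs numbered 27 before Igf2r, 14 before Mest and 19 before Plagl1, against a median of 6 (quartiles 2 and 16). The windows of Igf2r and Plagl1 were above the upper quartile, and that of Mest lay between the quartiles. These matches describe letters and show no binding.

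Other imprinted genes were followed as 2 lists. Of 31 genes in the domains of the 10, 21 were tested, with 11 above and 10 below 0, a median log2 fold change of 0.04, and 0 called by edgeR at an adjusted p under 0.05 or at an unadjusted p under 0.05. Groups did not overlap for 4 in each direction, against 19.6% of all genes higher and 15.9% lower. Kcnq1ot1, the noncoding antisense RNA that controls the domain of Cdkn1c, was at 237.5 CPM (WT 1), 121.2 (library labelled WT 2), 287.8 (HET 1) and 278.8 (HET 2) (log2 fold change 0.66 ± 0.39, SE). It was named here for its position beside Cdkn1c. Tspan32, a tetraspanin gene of blood cells in the same region, was at 1.11 CPM (WT 1), 0.0712 (library labelled WT 2), 1.36 (HET 1) and 4.16 (HET 2).

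Of 39 further imprinted genes, 32 were tested, with 17 above and 15 below 0, a median of 0.02, and 0 called by edgeR at an adjusted p under 0.05 (1, Ndn, at an unadjusted p under 0.05). The genes of smallest p were Ndn, Dcn, Atp10a and Zdbf2. Ndn, which encodes the growth suppressor necdin, was at 3.90 CPM (WT 1), 11.9 (library labelled WT 2), 2.47 (HET 1) and 2.30 (HET 2) (log2 fold change -1.73 ± 0.68, SE). Atp10a, a phospholipid flippase gene, was at 45.8 CPM (WT 1), 51.0 (library labelled WT 2), 33.9 (HET 1) and 33.8 (HET 2). Dcn, the matrix proteoglycan decorin, also stands in the fibroblast list and had a log2 fold change of -0.76, and Zdbf2 one of 1.41.

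The wider IGF axis (receptors, substrates and binding proteins) had 14 of 16 genes tested, 6 above and 8 below 0, a median of -0.23 (0.11 without the library labelled WT 2), and 0 called by edgeR after adjustment (1, Igf1, before it). Igf1, the other IGF ligand, was at 37.9 CPM (WT 1), 95.7 (library labelled WT 2), 29.9 (HET 1) and 28.8 (HET 2) (log2 fold change -1.19 ± 0.47, SE). Igf1r, the receptor through which both ligands signal, was at 84.0 CPM (WT 1), 135.5 (library labelled WT 2), 71.6 (HET 1) and 57.8 (HET 2) (-0.76 ± 0.35, SE). The 2 genes were lower in both HET libraries, as was Igf2r. Igfbp3, a binding protein of serum and tissue, was instead higher in both, at 94.7 CPM (WT 1), 120.9 (library labelled WT 2), 133.3 (HET 1) and 171.9 (HET 2). Of the 14 genes tested, groups did not overlap for 2 in each direction, against 19.6% of all genes higher and 15.9% lower. Pappa, a protease that frees IGFs from their binding proteins, overlapped between groups (-1.33 ± 0.78, SE).

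Of 11 oncofetal genes, 8 were tested, with 3 above and 5 below 0, a median of -0.46 (-0.10 without the library labelled WT 2 and 0.09 with no filter on low counts), and 0 called by edgeR either after or before adjustment. Hmga1, a chromatin protein of fetal and tumour cells, was at 119.6 CPM (WT 1), 49.8 (library labelled WT 2), 14.0 (HET 1) and 45.2 (HET 2) (log2 fold change -1.52 ± 0.66, SE). Its relative Hmga2 (log2 fold change -0.92) was highest in WT 1 and lowest in HET 1, the same ends as Plagl1. Gpc3 and Igf2bp2 had log2 fold changes of -0.57 and -0.35. Of 20 genes that set or keep imprints, 18 were tested, with 3 above and 15 below 0, a median of -0.22 (-0.09 without the library labelled WT 2), and 0 called by edgeR after adjustment (1, Uhrf1, before it). Uhrf1, which brings the maintenance methyltransferase to replicating DNA, was at 298.5 CPM (WT 1), 281.3 (library labelled WT 2), 171.0 (HET 1) and 165.6 (HET 2) (-0.78 ± 0.28, SE). Its partner Dnmt1 overlapped between groups, at 250.4, 576.6, 407.4 and 394.0 CPM, as did Ctcf, at 90.8, 122.2, 93.1 and 84.0 CPM. Rad21, Smchd1 and Tet1 had log2 fold changes of -0.38, -0.34 and 0.68.

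The genes with profiles most like that of H19 over the 4 libraries were sought among 12912 genes by the root mean square difference of centred log2 CPM. Rcn3 (0.0834) came first, followed by Hsf4 (0.0952), Ndufa4l2 (0.135), Sparc (0.138) and Lox (0.155). Sparc was at 1060 CPM (WT 1), 1995 (library labelled WT 2), 582.5 (HET 1) and 838.1 (HET 2). The genes nearest to Igf2 were Cby1, Atp5e, Prep, Zfp146 and Cct6a, at 0.0293 to 0.0465. With 4 libraries many genes share any given profile, so nearness is a description.

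**Figure D4:**
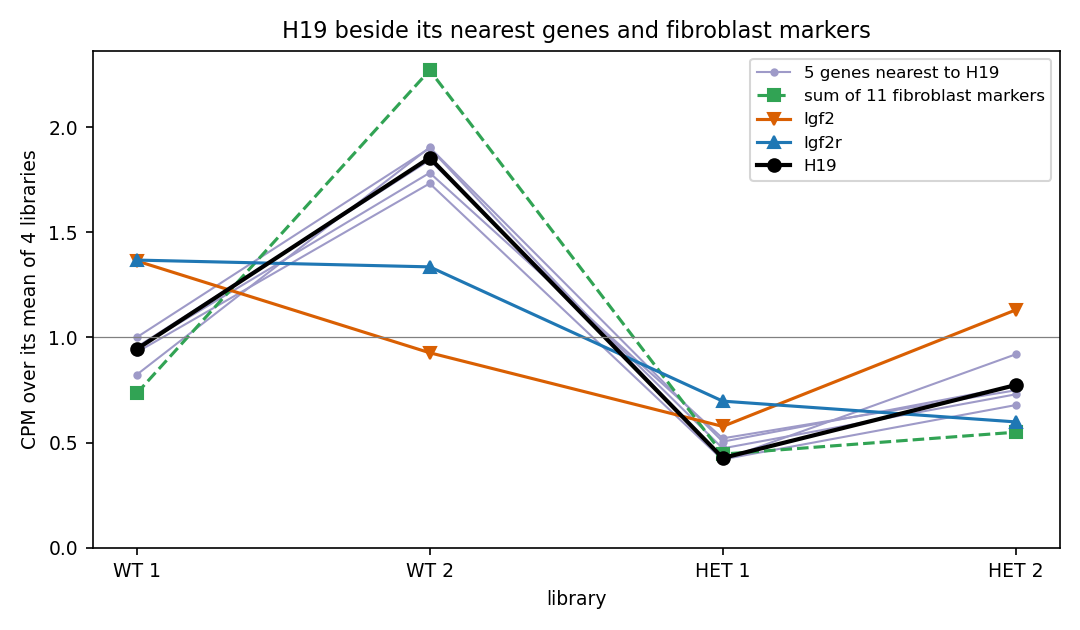
CPM of each gene over its own mean of the 4 libraries (y axis, from 0) in each library (x axis); lines only join the values of one gene or sum. H19 (black) and the summed fibroblast markers (green) are highest in the library labelled WT 2 and lowest in HET 1, whereas Igf2 and Igf2r are highest in WT 1. The 5 genes nearest to H19 (violet) were picked for their likeness to H19, so their shared highest and lowest libraries follow from that choice.

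All 11 fibroblast markers were highest in the library labelled WT 2, as was H19, against 26.6% of all genes. All 11 were below 0 (median log2 fold change -0.99), against 47.3% of all genes. Their summed level was 7664 to 23709 CPM in WT and 4653 to 5741 CPM in HET, and none was at 0 in a library. The library labelled WT 2 came first, then WT 1, HET 2 and HET 1, as for H19, and the sum spanned 5.10-fold against 4.34-fold for H19. That order came from Col1a1, Col1a2, Col3a1 and Postn, the 4 markers lowest in HET 1, while the other 7 were lowest in HET 2. Without the library labelled WT 2 the median of the fibroblast list was -0.23 and that of the 10 genes -0.21. Basal epithelial markers (7 of 9 below 0) had sums of 946.6 to 1333 CPM in WT and 481.6 to 1073 CPM in HET, and luminal markers (8 of 12 below 0, Elf5 among them) of 3287 to 3516 and 2464 to 2484 CPM. Pericyte markers (6 of 7 tested below 0) had sums of 293.7 to 520.5 and 321.3 to 387.7 CPM. The basal and pericyte medians, -0.55 and -0.25, turned to 0.27 and 0.28 without the library labelled WT 2, and the luminal median of -0.28 turned to 0.23 without WT 1. The part of these cell types in the levels of the imprinted genes was not tested.

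Markers of leukocytes, macrophages and endothelium were above 0 in the fit on 4 libraries. All 8 of each list were above 0, against 11392 of all 21607 genes tested. The library labelled WT 2 was the lowest for all 24 markers, against 8282 of all genes tested. Its sums were 14.7 CPM for leukocytes, 32.0 for macrophages and 70.2 for endothelium, against 279.1 to 337.2, 499.5 to 789.7 and 297.7 to 516.4 CPM in the others. Without that library the medians were 0.12 for leukocytes (from 1.06), -0.09 for macrophages (from 0.86) and 0.64 for endothelium (from 1.33), so the sign turned for macrophages. Cldn5 was at 0 in that library. Markers of skeletal muscle, a tissue rich in H19, had sums of 2.21 to 14.8 CPM. Myh4, Myod1 and Myog were at 0 in the library labelled WT 2, and Myod1 also in HET 1. Fat cell markers summed to 3.70 to 5.91 CPM, with Cidec at 0 in HET 2. Markers of erythroid cells, which TER119 marks, summed to 5.33 CPM (WT 1), 1.64 (library labelled WT 2), 5.52 (HET 1) and 15.7 (HET 2). Igf2r was at 288.3 CPM (WT 1) and 281.5 (library labelled WT 2) beside fibroblast sums of 7664 and 23709 CPM. In HET 1 and HET 2 it was at 147.0 and 126.2 CPM beside fibroblast sums of 4653 and 5741 CPM. The luminal sums were 3516 CPM (WT 1), 3287 (library labelled WT 2), 2484 (HET 1) and 2464 (HET 2). Neither the luminal nor the fibroblast sums overlapped between genotypes, as for Igf2r, whereas the basal and pericyte sums overlapped. The part of any of these cell types in the levels of the 10 genes was not tested.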

How the data were processed

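The authors deposited whole-numbered estimated counts for each gene. Salmon and the build GRCm38.p5 are named in the submitters' processing notes. Salmon's version, the annotation and the strand setting were not given in the sources used here, and reads shared by overlapping genes may be split differently under other settings. Of 51826 identifiers, 51633 matched GENCODE M21 (GRCm38) with versions dropped, and the table held 0 columns of other samples. The genotypes were compared with edgeR 4.0.16 in R 4.3.3, on 21607 genes kept by filterByExpr, with TMM scaling, the quasi-likelihood test, genotype as the only term and Benjamini-Hochberg adjustment over all genes. The fit was tried on simulated data with known changes. Those data had less spread between libraries than these, and larger changes than the 10 genes. The trial therefore checks the code and does not show what the test can find here. Total counts were 13152252 and 15307939 in WT and 14582943 and 12695132 in HET. Log2 CPM used a prior count of 2. Alternatives were other scalings and filters, DESeq2 1.42.0, limma-voom (limma 3.58.1), protein-coding genes alone, an adjusted p under 0.1 and leaving out each library. For a single gene, 0.333 is the smallest p that an exact two-sided permutation test of this design allows. Named genes were the 10 members, Elf5, the 4 of smallest p in each of 5 gene lists and the 5 nearest in profile to H19 and to Igf2, with domain neighbours named for position and Dnmt1 and Ctcf for their role. Single markers of cell types were also named, outside these rules. The members, lists and rules were chosen with earlier results of these data known.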

Additional observations from a re-analysis of the deposited data

How the results depend on the processing

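The count of genes at an adjusted p under 0.05 was 0 with relative log expression, upper-quartile and total-count scaling, with at least 1 CPM in 2 libraries, with protein-coding genes alone, in limma-voom and at an adjusted p under 0.1. It was 324 with no filter beyond 1 count, of 43097 genes then tested, and 134 in DESeq2. Without each library in turn it lay between 0 and 657, reaching 657 without WT 1 and 9 without the library labelled WT 2, where the lone library was assumed to vary like the other genotype. None of these settings called one of the 10 imprinted growth genes. Their median log2 fold change lay between -0.71 and -0.39 under the other scalings and filters, and between -1.03 and -0.21 without each library in turn. H19, Igf2, Igf2r, Mest and Plagl1 kept their direction under all 12 alternatives each. For H19 and Igf2r, whose groups did not overlap, leaving out a library could hardly turn it. Meg3 and Grb10 turned without the library labelled WT 2, Dlk1 without it and with total-count scaling, and Peg3 and Cdkn1c without HET 2. The cause was not tested. No paired analysis was possible because the labels give no number that ties a WT library to a HET library. Low counts limit Igf2, Dlk1 and the Mir675 row.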
